A study of Mus musculus with 12 samples.

Results

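Interferon-stimulated genes were described in Lgr5-GFP+ stem cells of the mouse intestinal epithelium in which 0, 1 or both copies of Apc carried a floxed allele. The group was a named list of 46 genes, of which 40 belong to the antiviral programme that type I and type III interferons switch on, and 6 are GTPases best known as targets of interferon-gamma. Members were taken by gene symbol, with the FPKM (fragments per kilobase of transcript, scaled to the mapped fragments of the library) of a symbol's loci summed. Of the 46, 42 had a row of their own, and 38 reached 1 FPKM in at least 4 libraries with matching loci and entered the fit of 12962 genes. Those 38 were 35 antiviral genes and 3 GTPases.

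The mice were C57BL/6 and every one carried Lgr5-CreERT2-ires-eGFP, so that the tamoxifen-activated recombinase and the GFP used for sorting were both driven from Lgr5. The 3 genotypes, with 4 mice each, were Apc+/+, called Apc_WT, ApcFlox/+, called Apc_HET, and the homozygous ApcFlox/Flox, called Apc_KO. All received 1 tamoxifen injection and then tamoxifen diet on 5 days, the Apc_WT mice included, and cells were sorted on day 15. RNA libraries were made with random primers, and the labels give no age, sex, batch or pairing.

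Interferons are secreted proteins that bind receptors on the cell surface and signal through JAK kinases to STAT proteins. Type I and type III interferons act mainly through a complex that joins STAT2 to IRF9 and binds the interferon-stimulated response element and turns on genes that sense, cut, edit or trap viral nucleic acid. Interferon-gamma acts mainly through STAT dimers at the gamma-activated site, and induces guanylate-binding proteins, immunity-related GTPases and the genes of antigen presentation. Epithelial cells of the gut answer type III interferon in particular, and intestinal stem cells are known to hold part of the antiviral set switched on without infection.

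Apc was measured over the whole gene, at 6.91 to 10.5 FPKM in Apc_WT, 9.81 to 12.5 in Apc_HET and from 9.94 to 17.3 in Apc_KO. It was called higher in Apc_KO against Apc_WT (0.58, limma adjusted p = 0.0142), though the libraries overlapped. These values do not check the deletion, because the floxed part was not measured apart. Stem cell and epithelial markers were measured in every library, with Lgr5 at 20.2 to 65.4 FPKM and Epcam at 649 to 1110 FPKM. In Apc_KO against Apc_WT 2 of 6 stem cell markers were called higher (Lgr5 and Axin2) and 1 lower, Olfm4, with a mean of 5461 FPKM in Apc_WT and 391 in Apc_KO (-4.42). Of 6 epithelial markers 1 was called higher (Krt18) and 3 lower, Krt20 (-1.92), Vil1 (-1.29) and Cdh1 (-0.46). All 7 enterocyte markers were called lower. Of 20 leukocyte markers 12 had a row, and the summed FPKM of the 11 without the erratic Cd3d was 9.45 to 22.3 in Apc_WT, 12.6 to 30.9 in Apc_HET and from 8.87 to 30.5 in Apc_KO. Ptprc, the pan-leukocyte marker, stayed at 0.138 to 1.1 FPKM, and at most 1 of the 12 markers was at 0 in any library (Cd3d or Itgax). Of the 9 leukocyte markers tested, 7 had negative differences in Apc_KO against Apc_WT. Itgam was called lower, with means of 3.16 FPKM in Apc_WT and 0.347 in Apc_KO (-1.63). Itgae was called higher, with means of 1.54 and 4.63 FPKM (1.15). Of 5 proliferation markers tested 1 was called lower, Mki67 (-0.70). Over all genes 27.9% were called higher and 17.7% lower. Of 9 markers of stroma and endothelium 5 had a row, and their sum was 8.91 to 26.4 FPKM in Apc_WT, 20.8 to 88.3 in Apc_HET and from 154 to 174 in Apc_KO, with Cdh5 at 0 to 0.0158 in the first and 14.2 to 29.3 in the last. Of the 4 tested, 3 were called higher in Apc_KO against Apc_WT (Pdgfra, Cdh5 and Vim) and Pdgfrb was called lower, with means of 3.56 and 1.01 FPKM (-1.25). Pdgfra and Cdh5 passed the filter of 1 FPKM in 4 libraries only through Apc_KO, which in part fixed their difference. The deposited loci covered 31.2% of the annotated span of Pdgfra, 11.3% of Pdgfrb, 44.5% of Ptprc, 24.3% of Cd3d and 59.2% of Olfm4. The part of these marker shifts in the results that follow was not tested. In sorted bulk samples, fewer cells of a type and less RNA per cell cannot be told apart.

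In Apc_KO against Apc_WT, 18 of the 38 members were called higher and 2 lower, a gene being called at a limma adjusted p under 0.05. Over all 12962 genes 45.5% were called, 27.9% higher and 17.7% lower, so the shares of the members were 47.4% higher against 27.9%. The median difference of the members on the log2(FPKM + 1) scale was 0.55, with single genes from -0.71 for Ifih1 to 2.01 for Usp18, beside a median of 0.12 over all genes. The 35 antiviral genes had 16 calls higher and 2 lower and a median of 0.50, and the 3 GTPases had 2 calls higher, Gbp2 and Gbp3, and a median of 1.21. Whether those lists differ from each other was not tested. In 17 members the 4 Apc_KO libraries lay above all 4 Apc_WT libraries, and in 2 they lay below, where 24.3% and 16% of all genes did so. Usp18, Ifit1, Ifi44, Gbp2 and Gbp3 passed the level filter only through their Apc_KO libraries, so that their difference was in part fixed by the filter. Without the filter, 41 members were tested, of which 19 were called higher and 2 lower, against 28% and 16.8% of all genes.

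**Figure D1:**
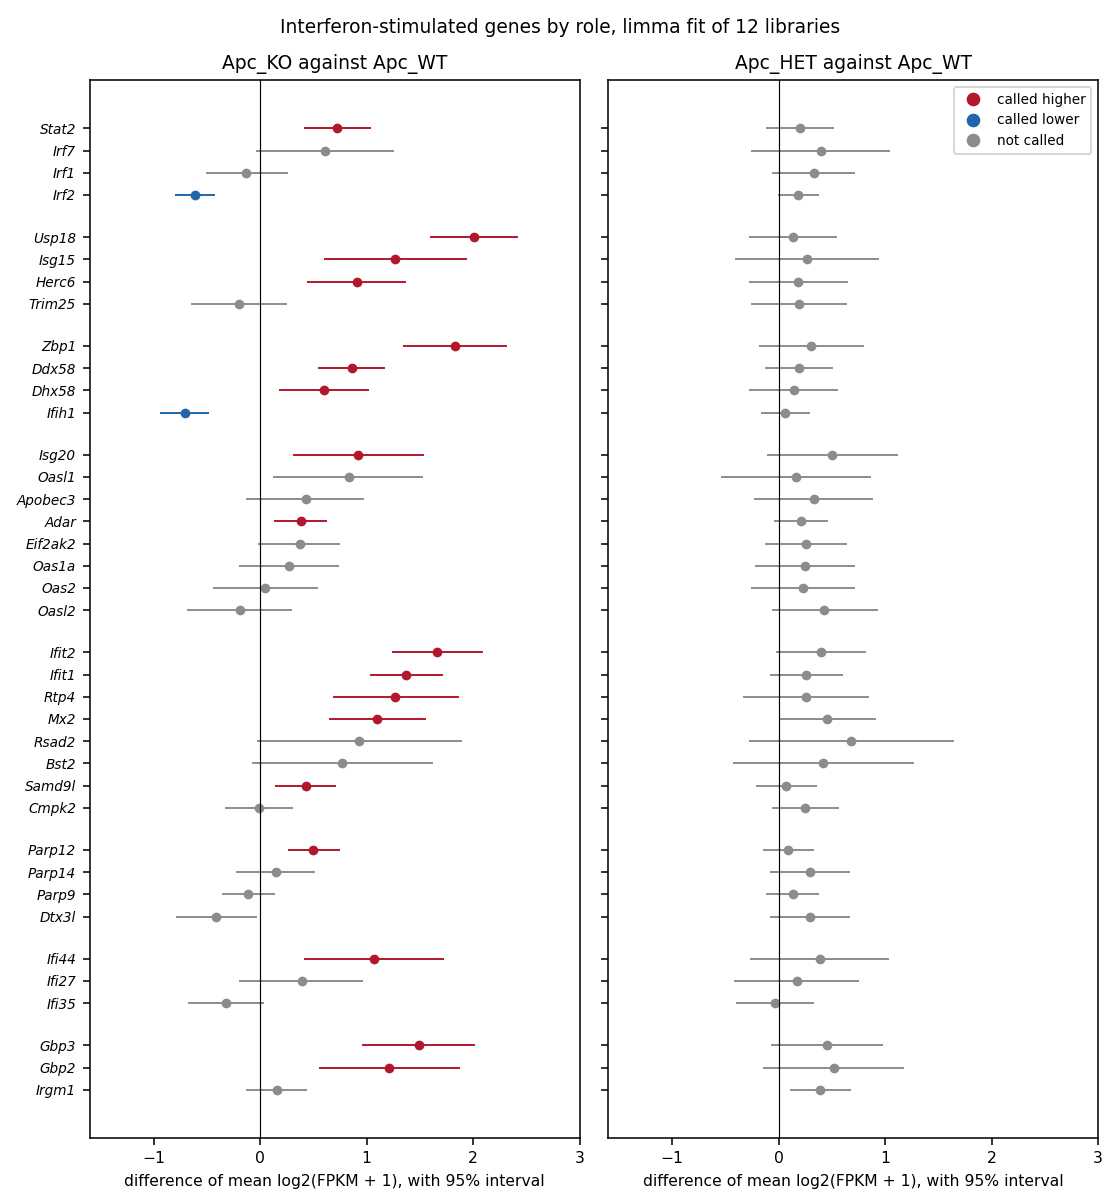
Difference of mean log2(FPKM + 1) for the 38 tested members, with its 95% interval from limma, in Apc_KO against Apc_WT (left) and Apc_HET against Apc_WT (right). Genes are grouped by role from signalling factors at the top to GTPases at the bottom, and colours mark calls: 18 members are called higher and 2 lower on the left, and 0 on the right.

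The split between higher and lower depended on scaling over all genes, since 61.2% of all calls were higher as deposited, 50.3% with size factors and 47.6% with quantile normalization. Size factors moved the median of all genes from 0.12 to 0.01. Of all 12962 genes 2864 were then called higher and 2829 lower. Among the 38 members 16 were called higher and 4 lower with size factors, with Adar and Samd9l no longer called and Dtx3l and Ifi35 called lower. Quantile normalization gave 13 higher and 4 lower and also ended the calls of Dhx58, Herc6 and Ifi44. Under it 2764 of the 12962 genes were called higher and 3043 lower. The remaining 13 genes called higher were Stat2, Isg15, Usp18, Ddx58, Zbp1, Isg20, Ifit1, Ifit2, Mx2, Rtp4, Parp12, Gbp2 and Gbp3, and all of these were called higher under both scalings.

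Apc_HET against Apc_WT gave 0 calls by limma, among the members and among all genes (percent called 0). At an unadjusted p under 0.05 there were 561 of all genes and 3 members, Irf2, Mx2 and Irgm1. The differences of 37 of the 38 members were positive, as were 66.7% of those of all genes, and their median was 0.26 against 0.07. Only that of Ifi35 was negative, at -0.03, and with size factors that of Ifih1 was negative too. Quantile normalization left 34 of 38 positive, and the medians became 0.19 and 0.16. A single library stood out: Apc_HET replicate 3 was the highest of its genotype in 31 of the 38 members, against 29.3% of all genes. Without it 36 of 38 differences were positive and the median was 0.17. Without Cd3d, the same library had the highest leukocyte sum of its genotype, 30.9 FPKM against 12.6 to 16.8 in the other 3, and with Cd3d replicate 2 was highest (137.7 FPKM, and 31.4 in replicate 3). Replicate 3 also had the lowest enterocyte median of its genotype, 4.83 against 5.80 to 7.21 on the log2(FPKM + 1) scale. The differences of all 7 enterocyte markers were negative in Apc_HET against Apc_WT, with a median of -1.10 and 0 calls. The part of these marker values in the result was not tested.

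Against Apc_HET, Apc_KO had 13 members called higher and 4 lower, where 22.8% of all genes were called higher and 18.9% lower (41.8% in all). Among those called higher, Usp18, Ifit1 and Gbp3 passed the level filter only through Apc_KO, which in part fixed their difference here too. Both comparisons with Apc_KO use the same 4 Apc_KO libraries. The median of the members was 0.30 against 0.04 over all genes. In 7 members the Apc_KO libraries lay above all Apc_HET libraries and in 4 below, as in 21.4% and 18% of all genes. Oasl2 and Dtx3l were called lower here beside Irf2 and Ifih1.

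**Figure D2:**
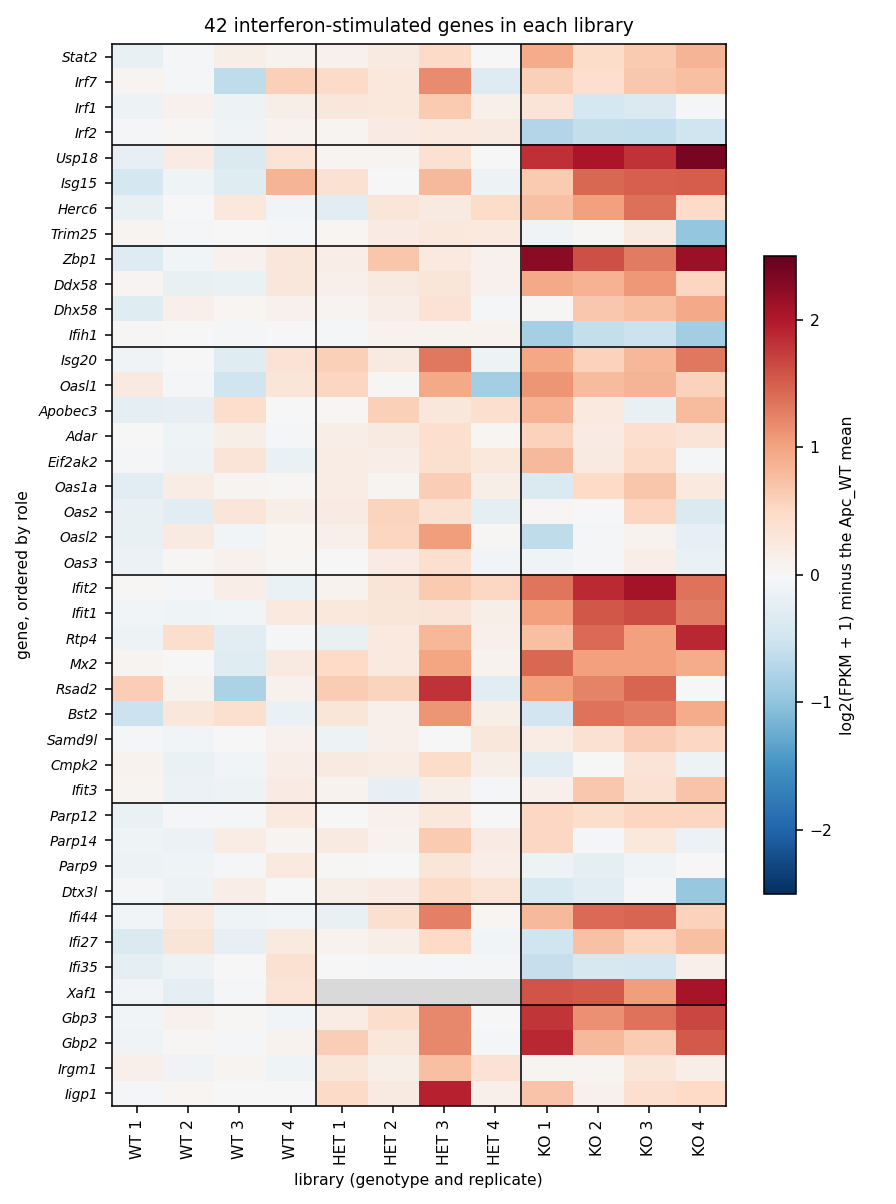
log2(FPKM + 1) of the 42 members with a row of their own in each library, less the mean of the 4 Apc_WT libraries, with genes in rows by role and libraries in columns. Red is higher and blue is lower than that mean, and grey marks Xaf1 in Apc_HET, whose locus there is another one. The Apc_KO columns are red for Usp18, Zbp1, Ifit1, Ifit2, Gbp2 and Gbp3 and blue for Irf2 and Ifih1, and Apc_HET replicate 3 is the reddest column of its genotype.

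Promoter sequences are shown for the called members of largest difference that had an entry in RefSeq (GRCm38.p6), since the response element that defines this gene class lies there. Windows of 250 bases before to 50 after each start were searched on both strands for 2 copies of GAAA with any 2 bases between them, the core of the interferon-stimulated response element, and for TTCNNNGAA, the gamma-activated site. Of the 46 members 36 had a window. The first motif was in 18 of them, or 50%, against 3.99% of 27025 genes, and the second in 11, or 30.6%, against 9.55%. Among members called higher in Apc_KO against Apc_WT the first was in 6 of 13 windows, among those not called in 6 of 14, and among those called lower in 2 of 2. A match describes letters and shows no binding. Each line gives the 250 bases before the start, 5′ to 3′ along the gene's strand, with capitals for each match of the first motif or its reverse complement, which may overlap.
Ifit2, chr19:34550444-34550693, plus strand: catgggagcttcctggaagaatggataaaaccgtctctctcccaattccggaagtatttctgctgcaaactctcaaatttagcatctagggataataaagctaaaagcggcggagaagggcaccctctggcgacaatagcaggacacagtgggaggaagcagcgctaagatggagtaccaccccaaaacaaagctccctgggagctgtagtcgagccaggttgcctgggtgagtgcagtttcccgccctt
Ifit1, chr19:34640639-34640888, plus strand: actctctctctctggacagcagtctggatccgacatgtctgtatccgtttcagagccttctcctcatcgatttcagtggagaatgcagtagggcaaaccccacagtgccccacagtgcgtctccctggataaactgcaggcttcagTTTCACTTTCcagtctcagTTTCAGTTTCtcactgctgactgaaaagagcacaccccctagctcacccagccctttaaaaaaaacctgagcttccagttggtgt
Isg15, chr4:156200819-156201068, minus strand: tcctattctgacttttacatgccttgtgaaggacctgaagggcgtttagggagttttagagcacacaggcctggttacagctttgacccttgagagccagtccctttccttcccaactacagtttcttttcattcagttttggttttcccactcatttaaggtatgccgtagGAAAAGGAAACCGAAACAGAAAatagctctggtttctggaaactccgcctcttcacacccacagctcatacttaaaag
Gbp3, chr3:142559794-142560043, plus strand: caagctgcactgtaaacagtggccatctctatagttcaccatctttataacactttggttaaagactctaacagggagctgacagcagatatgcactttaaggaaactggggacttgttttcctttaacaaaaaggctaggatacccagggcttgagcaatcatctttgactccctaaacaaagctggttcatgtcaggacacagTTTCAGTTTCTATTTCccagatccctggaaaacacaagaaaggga
Gbp2, chr3:142620413-142620662, plus strand: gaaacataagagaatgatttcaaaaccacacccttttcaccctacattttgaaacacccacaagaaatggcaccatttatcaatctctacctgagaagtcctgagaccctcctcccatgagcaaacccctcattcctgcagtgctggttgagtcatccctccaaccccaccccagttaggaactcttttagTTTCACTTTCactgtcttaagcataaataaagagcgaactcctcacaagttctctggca
Irgm1, chr11:48871421-48871670, minus strand: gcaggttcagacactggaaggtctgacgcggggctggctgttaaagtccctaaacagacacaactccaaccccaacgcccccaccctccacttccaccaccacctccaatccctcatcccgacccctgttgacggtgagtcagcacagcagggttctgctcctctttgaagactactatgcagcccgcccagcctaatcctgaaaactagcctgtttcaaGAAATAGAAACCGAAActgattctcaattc
Ifit1 has 2 separate matches, Isg15 an overlapping run of 3, Gbp3 an overlapping pair and Gbp2 a single one, while these 250 bases of Ifit2 hold none and its window has TTCNNNGAA at 1 place. Irgm1, which was not called, is printed beside them for its overlapping pair and was chosen after its values were seen.

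Among the signalling and transcription factors, 1 of 4 was called higher and 1 lower in Apc_KO against Apc_WT. The share called higher was 25%, and over all genes 27.9% were called higher and 17.7% lower. Stat2, on chromosome 10, is the STAT that only type I and type III interferons engage. Its FPKM in replicates 1 to 4 was 5.19, 5.87, 6.83 and 6.58 in Apc_WT, 6.61, 7.30, 8.88 and 6.07 in Apc_HET, and 12.5, 8.72, 10.2 and 11.8 in Apc_KO. The Apc_KO libraries all lay above Apc_WT, while the lowest of them was just under Apc_HET replicate 3. The difference from Apc_WT was 0.72 ± 0.14 (SE; limma adjusted p = 0.00121), and that from Apc_HET 0.52 ± 0.14 (limma adjusted p = 0.0105).

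Irf2 encodes a factor that competes with IRF1 for the same DNA element and is known mainly as a repressor of interferon-induced genes. It is on chromosome 8 at 46739732 to 46847458 (GRCm38). Its libraries gave 32.8, 34.6, 31.8 and 36.0 FPKM in Apc_WT, 35.6, 38.9, 40.4 and 39.4 in Apc_HET, and 19.8, 22.1, 21.8 and 23.5 in Apc_KO. The 4 Apc_KO values were below all 8 others, with the mean at 0.645 of Apc_WT and a difference of -0.61 ± 0.08 (SE; limma adjusted p = 9.1e-05). Irf1, the activator that both interferon classes induce, had the highest FPKM of the role, at 65.3 to 79.7 in Apc_WT and 78.3 to 114 in Apc_HET. In Apc_KO it was 89.9 in replicate 1 and 52.5, 55.5 and 70.5 in the others, so that the genotypes overlapped and no call was made (difference from Apc_WT -0.13, limma adjusted p = 0.589). Irf7, which amplifies type I interferon production, overlapped as well, at 9.47 to 23.3 FPKM in Apc_WT and 20.6 to 26.2 in Apc_KO. Irf9, the DNA-binding partner of STAT2, was deposited only in a row joined with its neighbour Rnf31. That row ran from 19.6 to 23.6 FPKM in Apc_WT and from 28.3 to 30.9 in Apc_KO, a difference of 0.45 ± 0.11 (SE; limma adjusted p = 0.00554) that cannot be divided between the genes.

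In the ISG15 system, where a ubiquitin-like protein is attached to others and removed again, 3 of 4 tested genes were called higher in Apc_KO against Apc_WT. That share of 75% stands beside 27.9% of all genes. It includes Usp18, which passed the level filter only through Apc_KO, so that its difference was in part fixed by the filter. Usp18 encodes the protease that removes ISG15 and also restrains the type I interferon receptor. It had 0.625, 1.15, 0.457 and 1.37 FPKM in Apc_WT, 0.967, 0.961, 1.42 and 0.869 in Apc_HET, and 5.61, 6.63, 5.49 and 8.63 in Apc_KO. The Apc_WT and Apc_HET values were mixed and every Apc_KO value stood far above them, with a mean 7.32 times that of Apc_WT. The difference was 2.01 ± 0.19 (SE; limma adjusted p = 3.63e-06). It was the largest of the 38 with a pseudocount of 1, whereas with a pseudocount of 5 it was 0.97 and that of Zbp1 was 1.41.

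Isg15, on the minus strand of chromosome 4 and with the overlapping run of motif matches printed above, codes for the modifier itself. Its FPKM was 2.98, 3.97, 3.38 and 8.63 in Apc_WT, 6.00, 4.34, 8.41 and 3.95 in Apc_HET, and 7.46, 13.5, 14.2 and 14.3 in Apc_KO. Apc_WT replicate 4 and Apc_KO replicate 1 overlapped, and the other 3 Apc_KO libraries were above all the rest. The difference from Apc_WT was 1.27 ± 0.30 (SE; limma adjusted p = 0.00443) and that from Apc_HET 1.01 (limma adjusted p = 0.0183). The latter call ended without Apc_HET replicate 2 or without Apc_HET replicate 4. Herc6, the ligase that attaches ISG15 in mice, ran from 0.969 to 1.70 FPKM in Apc_WT and from 2.16 to 4.83 in Apc_KO without overlap, a difference of 0.91 (limma adjusted p = 0.00353). Trim25, a ubiquitin ligase that activates RIG-I, was the most abundant of the role and was not called. It had 21.5 to 23.2 FPKM in Apc_WT and 20.9, 22.6, 26.0 and 10.9 in Apc_KO, where replicate 4 was the low one. Uba7, the activating enzyme for ISG15, was in a row joined with Ip6k1 and Gm20662 that was 25.9 to 32.1 FPKM in Apc_WT and 33.2 to 43.1 in Apc_KO.

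The 4 nucleic acid sensors were all called in Apc_KO against Apc_WT, and in both directions. Calls were 3 higher and 1 lower, beside 27.9% and 17.7% of all genes. Zbp1, which recognizes Z-form nucleic acid and can trigger necroptosis, had 4.90, 6.09, 6.93 and 8.07 FPKM in Apc_WT, 7.35, 10.9, 7.74 and 7.01 in Apc_HET, and 34.5, 21.6, 17.1 and 32.1 in Apc_KO. No Apc_KO library overlapped the other genotypes, and the mean was 4.05 times that of Apc_WT. The difference was 1.83 ± 0.22 (SE; limma adjusted p = 3.12e-05).

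Ddx58 encodes RIG-I, the sensor of viral RNA with a 5′ triphosphate. In Apc_WT it had 6.59, 5.39, 5.45 and 7.75 FPKM, in Apc_HET 6.94, 7.46, 7.90 and 6.74, and in Apc_KO 12.9, 12.2, 14.4 and 9.44. The Apc_KO libraries were the 4 highest, with a difference of 0.86 ± 0.14 (SE; limma adjusted p = 0.000352). Dhx58 encodes LGP2, the relative of RIG-I that lacks the signalling domains, and had 2.59, 3.83, 3.60 and 3.78 FPKM in Apc_WT, 3.62, 3.94, 4.69 and 3.35 in Apc_HET, and 3.53, 6.05, 6.49 and 7.51 in Apc_KO. Its Apc_KO replicate 1 lay inside the Apc_WT range, and the call (0.60 ± 0.19, SE; limma adjusted p = 0.0201) ended without Apc_WT replicate 1 and without Apc_KO replicate 3.

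Ifih1 encodes MDA5, the sensor of long double-stranded RNA, and went the other way from Ddx58. It is on the minus strand of chromosome 2 at 62595798 to 62646255 (GRCm38). Its values were 7.92, 7.85, 7.47 and 7.79 FPKM in Apc_WT, 7.61, 8.33, 8.26 and 8.28 in Apc_HET, and 3.91, 4.76, 5.06 and 3.79 in Apc_KO. The Apc_KO libraries were the 4 lowest and their mean was 0.565 of that of Apc_WT. The difference was -0.71 ± 0.10 (SE; limma adjusted p = 0.000124), and Ifih1 and Irf2 were called lower in all 22 alternative analyses run for each.

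**Figure D3:**
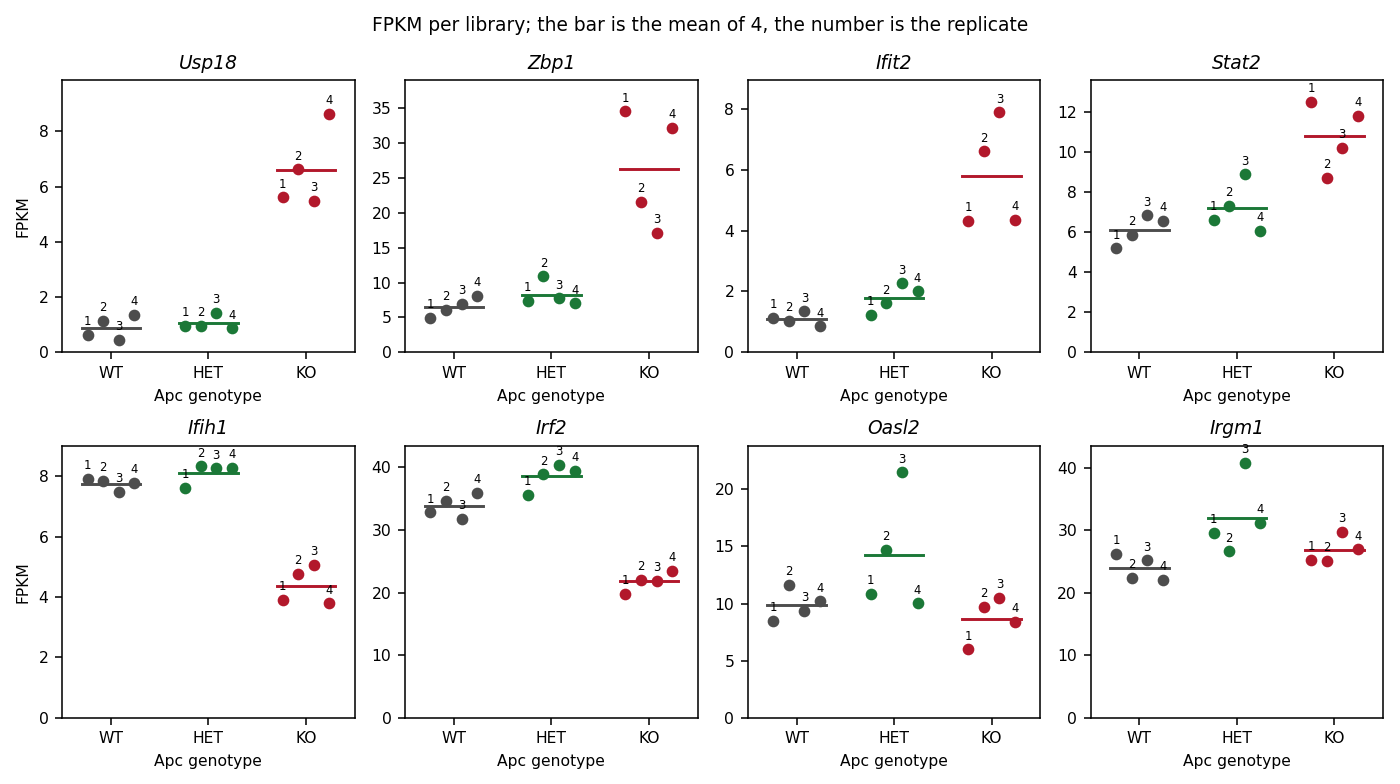
FPKM of 8 members in each library by Apc genotype, with the replicate number beside each point and a bar at the mean of 4. Usp18, Zbp1 and Ifit2 have all Apc_KO points above the rest, Stat2 in Apc_KO lies above Apc_WT, Ifih1 and Irf2 have all Apc_KO points below the rest, and Oasl2 and Irgm1 are highest in Apc_HET replicate 3.

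In the group of OAS family, PKR and RNA or DNA modifying enzymes, 2 of 8 tested genes were called higher in Apc_KO against Apc_WT and 0 lower, with a median difference of 0.37. The share called higher was 25%, near the 27.9% of all genes. Isg20, an exonuclease that degrades single-stranded RNA, had 3.79, 4.11, 3.11 and 5.53 FPKM in Apc_WT, 6.69, 4.90, 11.7 and 3.62 in Apc_HET, and 8.88, 6.53, 8.01 and 11.7 in Apc_KO. Apc_KO lay above Apc_WT throughout, while Apc_HET spanned both (0.92 ± 0.28, SE; limma adjusted p = 0.017), and the call ended without Apc_WT replicate 3 and with array weights. Adar, which edits adenosine to inosine in double-stranded RNA, had 13.7, 12.7, 15.2 and 13.2 FPKM in Apc_WT, 15.4, 16.1, 18.6 and 14.2 in Apc_HET, and 20.9, 16.0, 18.6 and 17.2 in Apc_KO. The difference from Apc_WT was small, at 0.38 ± 0.11 (SE; limma adjusted p = 0.0138).

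Apobec3, a cytidine deaminase that mutates retroviral DNA, was the most abundant member of all, with 232, 238, 373 and 278 FPKM in Apc_WT, 280, 416, 336 and 368 in Apc_HET, and 503, 327, 241 and 478 in Apc_KO. Its genotypes overlapped (0.43, limma adjusted p = 0.187). Oasl1 had 11.9 to 21.5 FPKM in Apc_WT and 26.2 to 37.9 in Apc_KO, which did not overlap, but just missed the threshold (0.83 ± 0.32, SE; limma adjusted p = 0.0512). Its relative Oasl2 showed another order, with 8.50, 11.6, 9.33 and 10.2 FPKM in Apc_WT, 10.8, 14.7, 21.5 and 10.02 in Apc_HET, and 5.98, 9.69, 10.5 and 8.42 in Apc_KO. Its difference was -0.63 against Apc_HET (limma adjusted p = 0.0397), a call that ended without Apc_HET replicate 3, the library at 21.5, and in 7 other alternatives. Oas1a, Oas2 and Eif2ak2, which encode double-stranded RNA-activated enzymes, overlapped between genotypes, with differences of 0.27, 0.05 and 0.37 against Apc_WT. Oas1a shares 57.6% of its 50-base stretches with Oas1g and Oas1b, so its value is uncertain. Oas3 was under the filter at 0.650 to 1.48 FPKM over all libraries, with a difference of -0.04 (exact two-sided permutation p = 0.657).

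Among the IFIT and other antiviral effectors, 5 of 8 tested genes were called higher in Apc_KO against Apc_WT and 0 lower, with a median difference of 1.02. The share called higher was 62.5%, beside 27.9% of all genes. It includes Ifit1, which passed the level filter only through Apc_KO, so that its difference was in part fixed by the filter. IFIT proteins bind viral RNA and block its translation. Ifit2 had 1.15, 1.05, 1.35 and 0.853 FPKM in Apc_WT, 1.24, 1.61, 2.27 and 2.01 in Apc_HET, and 4.31, 6.60, 7.88 and 4.35 in Apc_KO, so that the Apc_KO libraries were all apart from the other genotypes. The mean was 5.27 times that of Apc_WT, with a difference of 1.66 ± 0.19 (SE; limma adjusted p = 1.89e-05). Its neighbour on chromosome 19, Ifit1, has 2 matches of the first motif in the promoter printed above. Ifit1 ran from 0.527 to 0.953 FPKM in Apc_WT, 0.833 to 1.08 in Apc_HET and from 2.36 to 4.10 in Apc_KO. The Apc_KO mean was 5.05 times that of Apc_WT, with a difference of 1.37 (limma adjusted p = 1.51e-05). Ifit3, under the filter, was 0.273 to 0.626 FPKM in Apc_WT and 0.537 to 1.30 in Apc_KO with overlap (exact two-sided permutation p = 0.0571), and 51.2% of its 50-base stretches occur in Ifit3b too.

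Rtp4, a chaperone of receptor transport that also binds viral RNA, had 3.402, 5.59, 2.98 and 3.73 FPKM in Apc_WT, 3.27, 4.71, 7.63 and 4.28 in Apc_HET, and 7.15, 11.99, 8.88 and 16.8 in Apc_KO. Apc_KO exceeded all of Apc_WT but not Apc_HET replicate 3 (1.27 ± 0.27, SE; limma adjusted p = 0.00204), and the deposited locus covers 4.46% of the annotated span of the gene. Samd9l, a restriction factor for poxviruses, had 4.50, 4.40, 4.62 and 5.12 FPKM in Apc_WT, 4.16, 5.16, 4.72 and 5.91 in Apc_HET, and 5.46, 6.36, 7.65 and 7.13 in Apc_KO. Its difference from Apc_WT was 0.43 ± 0.13 (SE; limma adjusted p = 0.0148). Mx2, a dynamin-like GTPase, ran from 0.414 to 1.05 FPKM in Apc_WT, 0.852 to 2.48 in Apc_HET and from 2.34 to 3.71 in Apc_KO (1.10 against Apc_WT, limma adjusted p = 0.00085). The effectors without a call were Bst2, Rsad2 and Cmpk2. Bst2, which tethers budding virions, was the most abundant effector, with 8.45, 15.8, 17.1 and 11.3 FPKM in Apc_WT, 15.9, 14.0, 28.5 and 14.1 in Apc_HET, and 8.77, 34.0, 32.4 and 25.0 in Apc_KO. In that gene 3 Apc_KO libraries were above all Apc_WT libraries and replicate 1 was within them (0.77, limma adjusted p = 0.125). Rsad2, or viperin, showed a like spread, from 0.538 to 3.06 FPKM in Apc_WT and from 1.70 to 6.28 in Apc_KO, with the highest library of all in Apc_HET replicate 3 at 8.31. Cmpk2, which sits next to Rsad2, had means of 5.31 FPKM in both Apc_WT and Apc_KO.

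The PARP and DTX3L genes encode ADP-ribosyltransferases and a ubiquitin ligase partner, and 1 of 4 was called in Apc_KO against Apc_WT. That is 25% called higher, near the 27.9% of all genes. Parp12 had 8.92, 9.74, 9.81 and 12.1 FPKM in Apc_WT, 9.98, 10.9, 12.4 and 10.1 in Apc_HET, and 14.8, 14.1, 15.1 and 15.0 in Apc_KO. Apc_KO was higher than all other libraries and narrow, and the difference from Apc_WT was 0.50 ± 0.11 (SE; limma adjusted p = 0.0021). Dtx3l had 13.2, 12.2, 15.3 and 13.5 FPKM in Apc_WT, 15.0, 15.8, 19.2 and 17.4 in Apc_HET, and 10.1, 11.0, 13.2 and 6.54 in Apc_KO. It fell by 0.70 against Apc_HET, without overlap (limma adjusted p = 0.00524), whereas -0.41 against Apc_WT was not called (limma adjusted p = 0.0671) except under size factors, under quantile normalization and without Apc_KO replicate 3 (-0.53). Parp9, which overlaps Dtx3l on the other strand, was not called in any comparison. It ran from 13.2 to 15.92 FPKM in Apc_KO, from 14.3 to 18.8 in Apc_WT and from 15.93 to 19.79 in Apc_HET. How reads were assigned by strand is not given in the sources used here, so the values of this pair are uncertain.

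Of the other interferon-stimulated genes, Ifi44, which is induced by type I interferon, was called higher. It ran from 0.639 to 1.10 FPKM in Apc_WT, 0.566 to 3.26 in Apc_HET and from 1.65 to 3.88 in Apc_KO, with a difference from Apc_WT of 1.07 (limma adjusted p = 0.0109). Ifi27 was the most abundant of the role, with 18.9, 30.6, 21.0 and 29.1 FPKM in Apc_WT, 26.0, 27.2, 34.6 and 23.2 in Apc_HET, and 17.1, 41.2, 35.8 and 41.9 in Apc_KO. As in Bst2, Apc_KO replicate 1 was low and the other 3 were above Apc_WT, and no call was made (0.39, limma adjusted p = 0.259). With array weights Ifi27 and Bst2 were both called higher. Ifi35 had 14.4, 15.5, 17.0 and 22.7 FPKM in Apc_WT, 17.3, 16.7, 16.5 and 16.5 in Apc_HET, and 11.2, 12.7, 12.6 and 18.8 in Apc_KO, with 3 Apc_KO libraries under all of Apc_WT (-0.32, limma adjusted p = 0.131). Xaf1, which binds the apoptosis inhibitor XIAP, was left out of the fit because another stretch of it was deposited for Apc_HET. Between Apc_WT and Apc_KO, where the locus was the same, it had 3.22, 2.83, 3.34 and 4.61 FPKM and 12.2, 11.8, 8.20 and 17.5 FPKM. These did not overlap, the means differed 3.55-fold, and the exact two-sided permutation p was 0.0286, the smallest that 70 regroupings allow.

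Of the 6 GTPases that interferon-gamma induces to attack the membranes around intracellular pathogens, 3 were tested. Gbp3, a guanylate-binding protein on chromosome 3, had 0.466, 0.662, 0.573 and 0.458 FPKM in Apc_WT, 0.752, 1.07, 2.53 and 0.537 in Apc_HET, and 4.29, 2.40, 2.94 and 3.92 in Apc_KO. Apc_KO was above Apc_WT throughout, and Apc_HET replicate 3 reached into the Apc_KO range. The difference from Apc_WT was 1.49 ± 0.24 (SE; limma adjusted p = 0.000274), with a mean 6.28 times that of Apc_WT. Its neighbour Gbp2 ran from 0.312 to 0.478 FPKM in Apc_WT, 0.353 to 2.20 in Apc_HET and from 1.15 to 4.11 in Apc_KO, a difference of 1.21 (limma adjusted p = 0.00561).

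Irgm1, a regulator of the other immunity-related GTPases, was the most abundant of the role and was not called. Its deposited locus covers 73.9% of the annotated span. It had 26.2, 22.4, 25.2 and 22.1 FPKM in Apc_WT, 29.6, 26.6, 40.8 and 31.2 in Apc_HET, and 25.3, 25.2, 29.8 and 27.0 in Apc_KO. Here Apc_HET lay above all of Apc_WT, as 5.46% of all genes did, while Apc_KO overlapped both. The difference in Apc_HET was 0.39 ± 0.13 (SE; limma adjusted p = 0.987), and in Apc_KO 0.16 (limma adjusted p = 0.343). Igtp was deposited only in a row joined with Irgm2. That row had 8.48, 7.21, 8.08 and 7.71 FPKM in Apc_WT, 13.0, 10.6, 24.8 and 10.1 in Apc_HET, and 30.5, 17.96, 28.5 and 26.7 in Apc_KO. The Apc_WT libraries were the lowest, Apc_HET came between with replicate 3 inside the Apc_KO range, and the difference of Apc_KO from Apc_WT was 1.58 ± 0.24 (SE; limma adjusted p = 0.000209). Iigp1 was under the filter, with 0.106 to 0.154 FPKM in Apc_WT, 0.231 to 3.25 in Apc_HET, where replicate 3 held the 3.25, and 0.204 to 0.843 in Apc_KO. Both comparisons with Apc_WT gave an exact two-sided permutation p of 0.0286, again the smallest allowed. Tgtp1 had no row.

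Between libraries, the median log2(FPKM + 1) of the 35 antiviral genes was 2.82 to 3.18 in Apc_WT, 3.02 to 3.47 in Apc_HET and from 3.30 to 3.77 in Apc_KO. That of the 3 GTPases was 0.55 to 0.73 in Apc_WT, 0.62 to 1.82 in Apc_HET and from 1.76 to 2.40 in Apc_KO. Irgm1 was the highest of the 3 in every library, so that median was the larger of Gbp2 and Gbp3. In every Apc_KO library it was Gbp3. Gbp2 and Gbp3 passed the level filter only through Apc_KO, which in part fixed the difference, and Irgm1 was not called (0.16). Within Apc_KO the orders of the libraries differed between genes. Replicate 1 had the lowest antiviral median and the highest GTPase median of that genotype, was low for Isg15, Bst2, Ifi27 and Dhx58, and was the highest for Zbp1, Gbp2, Gbp3, Mx2 and Stat2.

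**Figure D4:**
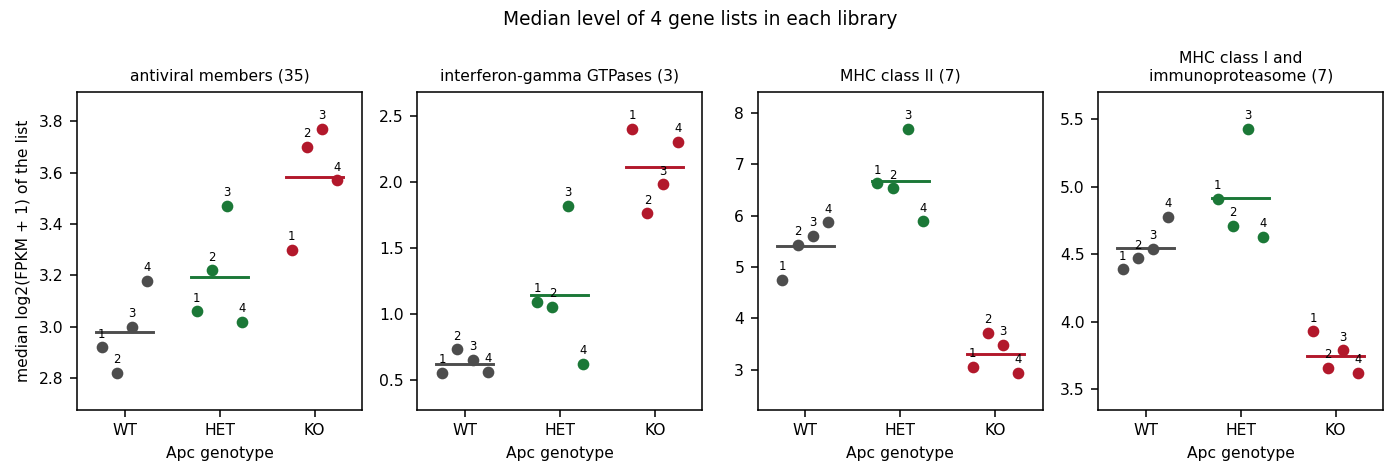
Median log2(FPKM + 1) of 4 gene lists in each library by Apc genotype, with replicate numbers beside the points and a bar at the mean of 4. The GTPase median of a library is the larger of Gbp2 and Gbp3, since Irgm1 is above both. Gbp2 and Gbp3 passed the level filter only through Apc_KO. Antiviral medians lie at 3.30 to 3.77 in Apc_KO against 2.82 to 3.18 in Apc_WT and GTPase medians at 1.76 to 2.40 against 0.55 to 0.73, whereas MHC class II medians lie lower in Apc_KO (2.93 to 3.72) than in Apc_WT (4.75 to 5.87), and Apc_HET replicate 3 is the highest of its genotype in all 4 panels.

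The remaining genes of the pathway came from lists chosen with the members. None of 9 interferon genes had a row, so no ligand was measured. Of 6 receptor and kinase genes 3 (50%) were called higher in Apc_KO against Apc_WT and 0 lower, beside 27.9% and 17.7% of all genes. Ifnar2, Il10rb and Tyk2 of the same list were only in joined rows, which were not called. The row of Ifnar2 and Il10rb differed by -0.02 (limma adjusted p = 0.905). That of Tyk2 and Zglp1 differed by -0.17 (limma adjusted p = 0.178). Ifnlr1, the specific chain of the type III receptor, ran from 2.94 to 3.74 FPKM in Apc_WT and from 6.56 to 12 in Apc_KO (1.08, limma adjusted p = 0.000294). Ifnar1, a chain of the type I receptor, ran from 19.1 to 23.7 FPKM in Apc_WT and from 27.8 to 43.4 in Apc_KO (0.74, limma adjusted p = 0.00049), and Ifngr2 of the interferon-gamma receptor differed by 0.39 (limma adjusted p = 0.0042). Its other chain, Ifngr1, ran from 80.9 to 110 FPKM in Apc_WT and from 56.9 to 90.5 in Apc_KO, a difference of -0.47 that was not called (limma adjusted p = 0.077). That difference was called lower with size factors (-0.60), with array weights (-0.61), without Apc_KO replicate 1 (-0.63) and without Apc_HET replicate 3. Against Apc_HET, Ifngr1 was called lower (-0.66, limma adjusted p = 0.0217), a call that ended without Apc_HET replicate 2 or 3, without Apc_KO replicate 2 or 3 and in a fit of those 2 genotypes alone.

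Of 10 tested genes that lead to interferon production, 1 was called higher and 4 lower in Apc_KO against Apc_WT. Over all genes 27.9% were called higher and 17.7% lower. Tmem173, which encodes STING, the adaptor of cytosolic DNA sensing, had 1.86, 3.60, 5.01 and 2.15 FPKM in Apc_WT, 3.11, 2.73, 3.60 and 2.001 in Apc_HET, and 49.9, 49.6, 54.7 and 56.5 in Apc_KO. Its Apc_KO libraries were far from the rest, with a difference of 3.75 ± 0.22 (SE; limma adjusted p = 8.54e-08). The 4 called lower were Ikbke, a kinase of IRF3 and IRF7 (-0.99), Ticam1, an adaptor of TLR3 and TLR4 (-0.76), Mavs, the adaptor of RIG-I and MDA5 (-0.70), and Tlr3, a sensor of double-stranded RNA (-0.54). Among 7 negative regulators, Socs3 (1.49) and Socs1 (0.46) were called higher, which is 28.6% beside 27.9% of all genes. The call of Socs1 ended with size factors, with quantile normalization and without Apc_WT replicate 2.

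Further GTPases and interferon-stimulated genes outside the 46 were tested in the same fit. Of 12 more GTPases 3 were tested, and 2 were called higher, Gbp5 (4.58, listed at 0 FPKM in 3 Apc_WT libraries and at 21.2 to 66.8 in Apc_KO, over 4.78% of the annotated span) and Gbp7 (0.80), whose call ended with quantile normalization. Gbp5 and Gbp7 passed the level filter only through their Apc_KO libraries, so that their difference was in part fixed by the filter. A joined row of Gbp4, Gbp8 and Gbp9 ran from 0.544 to 0.880 FPKM in Apc_WT and from 4.88 to 7.25 in Apc_KO. That row also passed the filter only through Apc_KO. Another joined row, of Ifi47 and Olfr56, was more abundant and did not rise in Apc_KO. Its mean FPKM was 14.3 for Apc_KO, below 15.6 for Apc_WT and 19.6 for Apc_HET. The libraries of the genotypes overlapped, and that row was not tested. Of 18 other interferon-stimulated genes 7 (38.9%) were called higher and 1 lower, beside 27.9% and 17.7% of all genes. Among the 7, Ifi27l2a passed the filter only through Apc_KO. The median of the 18 was 0.16, close to the 0.12 of all genes. Ifitm3, which blocks viral entry, led them with a mean of 102 FPKM in Apc_WT and 627 in Apc_KO (2.51, limma adjusted p = 7.55e-05), and Lgals9 was the 1 called lower (-0.57).

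Antigen presentation genes, which interferon-gamma also induces, went the opposite way. All 7 MHC class II genes were called lower in Apc_KO against Apc_WT with a median of -1.73, among them their regulator Ciita at 1.90 to 3.48 FPKM in Apc_WT and 0.226 to 0.702 in Apc_KO. Of 7 MHC class I and immunoproteasome genes 5 were called lower, with a median of -0.80. Over all genes 17.7% were called lower. In Apc_HET the 7 class II genes were all positive without a call, with a median of 0.85 that became 0.67 without replicate 3.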

How the data were processed

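RNA from 12 libraries was analysed from tables of assembled loci, 22555 for Apc_WT, 22548 for Apc_HET and 22552 for Apc_KO. The values are FPKM as deposited, per the file headers, and per the submitters' processing notes the tools were Cuffdiff, Cufflinks, TopHat and Bowtie and the build was mm10, that is GRCm38. Versions, annotation and strand settings are not given in the sources used here. Loci without a gene name, 3548 per table, held 1.01% to 9.67% of a library's FPKM and were left out. FPKM were summed per symbol, symbols with differing loci (295) or a failed estimate (122) were dropped, and 14082 were used. Total FPKM per library ran from 391710 to 518428. Absolute depth is unknown. The commonest step between low values put the other libraries at 0.432 to 0.877 of Apc_WT replicate 1, which may be off where a step is 2 reads.

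limma 3.58.1 (R 4.3.3) was fitted to log2(FPKM + 1) in all 12 libraries together, with an intensity trend, on the 12962 genes at 1 FPKM or more in 4 libraries. Genes were called at a Benjamini-Hochberg adjusted p under 0.05, two-sided. Fold changes on this scale understate those of low genes. Genes outside the fit were compared by exact permutation over 70 regroupings. The procedure was checked on simulated data. Alternatives were 2 other pseudocounts, 2 other filters, 2 scalings, fits of only the compared genotypes, array weights, a replicate block, the top locus per symbol and leaving out each library.

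Members and lists were chosen with earlier results of these data known. Library values are given for members called in any comparison with a mean of 5 FPKM or more in a genotype. The 2 most abundant of each role are given by library or by range, and other members mostly by range. Pathway lists are given by counts, with values for a choice of their called genes, for Ifngr1 and for joined rows. Promoters were printed for Ifit2, Gbp3, Ifit1, Isg15 and Gbp2, the called members of largest difference with an entry in RefSeq, and for Irgm1. Those of the other called members with an entry are not shown. Positions come from GENCODE on GRCm38, and shared 50-base stretches from its transcripts.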

Additional observations from a re-analysis of the deposited data

Results flagged for a closer look

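For each of the 42 members with a row of its own and for the 2 list medians, the 4 libraries of a genotype were searched for one that lay far from the other 3, by Dixon's ratio at the 95% level. Of 131 such groups 5 held one, where chance gives about 1 in 20.

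Isg15 in Apc_KO had 7.47 FPKM in replicate 1, and 13.5 to 14.3 in the others. Ifih1 in Apc_HET had 7.61 FPKM in replicate 1, and 8.26 to 8.33 in the others. Dhx58 in Apc_WT had 2.59 FPKM in replicate 1, and 3.60 to 3.83 in the others, and its call in Apc_KO against Apc_WT ended without that library. Ifit1 in Apc_WT was at 0.953 FPKM in replicate 4, and at 0.527 to 0.584 in the others. Ifi44 in Apc_WT was at 1.10 FPKM in replicate 2, and at 0.639 to 0.693 in the others.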

How the results depend on the processing

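In Apc_KO against Apc_WT 20 members were called, and 12 of 28 (10 higher, 2 lower) with a filter of 5 FPKM, where fewer genes were tested. With that filter 2560 of all 9904 genes were called higher and 1803 lower. The other alternatives gave 17 to 25, and leaving out 1 library gave 19 to 23. Array weights gave 22 higher and 3 lower, where 3993 and 2452 of all 12962 genes were called. They added Bst2, Eif2ak2, Ifi27, Oas1a and Rsad2 as higher and Ifi35 as lower, and ended the call of Isg20. Apc_HET against Apc_WT gave 0 calls in all alternatives, leaving out each library included (0 to 0). Apc_KO against Apc_HET gave 17 calls, and 13 to 19 without 1 library. The antiviral medians ran from 0.45 to 0.61 (Apc_KO against Apc_WT) and from 0.16 to 0.29 (Apc_HET against Apc_WT) without 1 library. The GTPase median in Apc_KO against Apc_WT rests on 3 genes. It was 1.21, and 2.21 with a pseudocount of 0.1, 0.44 with a pseudocount of 5, 0.82 without a filter (4 genes), 0.16 at 5 FPKM (1 gene), 0.89 with quantile normalization, 0.85 with array weights and 0.99 to 1.41 without 1 library. In Apc_HET it was 0.45, and 0.27 to 0.61 without 1 library. With the replicate number as a block 21, 0 and 19 members were called. The labels state no pairing. The deviations of libraries with the same number correlated at -0.195 to 0.18, and not every library correlated best with its own number, so the numbers were not taken to pair the mice. Of 2478 values of single genes under an alternative, 38 lost a call, 48 gained one and 0 called values changed sign. Calls in Apc_KO against Apc_HET that ended most often were those of Samd9l (12 of 22 alternatives), Oasl2 (8 of 22) and Mx2 (4 of 21). Low FPKM limits Usp18, Ifit1, Ifit2, Mx2, Ifi44, Gbp2 and Gbp3, all under 1.5 FPKM in every Apc_WT library.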
